A study of Mus musculus with 13 samples.

Results

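Monocytes and macrophages are identified in transcriptome data by a small set of genes whose products they secrete, store in lysosomes, or carry on the surface. The 10 genes described here, *Fn1*, *F13a1*, *Lgals3*, *Lyz2*, *Mpeg1*, *Cd68*, *Fcgr3*, *Ly86*, *Ly6c2*, and *Ms4a6c*, were taken by name from the 54838 genes of the raw count table, and each matched 1 Ensembl identifier. All 10 passed the filter on low counts, as did 17795 genes in all. The members were chosen by their read counts in NPmut against control mice, which were known from an earlier look at these data, so that for these 10 genes every difference that involves NPmut mice is given below as a description, with its size and error and no p-value. Counts of members called in such comparisons describe the choice and support nothing. Genes outside the 10 are given with their tests, although the lists that hold them were also made with earlier results of these data known.

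RNA had been sequenced from 50000 sorted Lin- cKit+ BM cells per mouse, cells without mature lineage markers that include the HSPCs. All 13 mice carried *Mx1-Cre*, a recombinase gene switched on by interferon and active in hematopoietic and some other cells. The 3 control mice carried only this transgene, the 3 p53mut mice also p53 R172H/+, the 3 NrasG12D mice also a mutant *Nras* allele, and the 4 NPmut mice both p53 R172H/+ and Nras G12D/+. Control and single-mutant mice were given 3 doses of 100 μg of the interferon inducer pI-pC by injection at about 6 weeks of age and were age-matched with the NPmut mice. NPmut mice were not injected, relied on leaky Cre, and were moribund when the cells were taken. Genotype, injections, and stage of disease thus cannot be told apart in any comparison with NPmut mice. The genotype label of the NrasG12D mice reads G21D where their title reads G12D, and the name in the title is used here.

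Monocytes arise in the BM from granulocyte-monocyte progenitors, which already transcribe lysozyme and other myeloid genes, through monocyte-committed progenitors. Classical monocytes carry Ly6C and leave the BM for inflamed tissue, patrolling monocytes stay along vessel walls, and both differ from the resident macrophages that clear dying cells and recycle iron. The transcription factors PU.1, C/EBP, and IRF8 drive monocyte fate.

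The label of the sorted cells was checked against marker genes. *Kit*, the receptor used in the sort, stood at 540 ± 31.7 CPM in control mice (SD, n = 3) and 372 ± 66.4 CPM in NPmut mice (SD, n = 4). Its log2 fold change was -0.54 (SE 0.15, and adjusted p = 0.0322 by edgeR's quasi-likelihood test with Benjamini-Hochberg adjustment). CPM are counts scaled to the TMM-adjusted library size. The T cell marker *Cd3e* and the neutrophil surface marker *Ly6g* reached at most 0.516 and 0.402 CPM in any mouse. Neither gene stands for its list as a whole. The T and NK lymphoid list summed to 38.0 to 68.2 CPM per mouse, and the neutrophil and GMP list to 9322 to 23236 CPM. Library totals ran from 12576174 to 29124022 counts, both extremes in NPmut mice, and the NPmut mice varied more among themselves than the other groups, with a median SD of 0.35 against 0.20 to 0.22 on the log2 CPM scale. NPmut mouse 2 had the largest total and the smallest TMM factor (0.892). The chi-square per gene between NPmut mice, which also grows with library size, was 84.8 to 98.5 for pairs with mouse 2 and 21.1 to 30.7 for the other pairs.

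Upstream sequence is shown for 3 of the genes whose NPmut values lay above those of all other mice, picked because their windows held a match. RefSeq (GRCm38.p6) gave the 250 bases before the transcription start for 9 of the 10 genes, and these were searched on both strands for the letters GAGGAAG (PU.1), TGANTCA (AP-1), and TTGCNNAA (C/EBP), motifs that do not overlap each other in the windows printed. PU.1 letters were present before at least 1 start of *F13a1*, *Ly6c2*, and *Fcgr3*, 3 of the 9 genes, against 12% of all 27025 genes with such a window. AP-1 letters were found before *Cd68* alone of the 9 (7.82% of all genes), and C/EBP letters before *Cd68* and *Fcgr3* (10.8% of all genes). No match was found before *Lgals3*, *Lyz2*, *Ly86*, *Mpeg1*, and *Ms4a6c*, or before another start of *F13a1*. The windows below run 5′ to 3′ on the strand of the gene, which is the minus strand in each case, and capitals mark the matches. They lie at chr11:69666171-69666420 (*Cd68*), chr13:37050245-37050494 (*F13a1*), and chr15:75111972-75112221 (*Ly6c2*).
Cd68: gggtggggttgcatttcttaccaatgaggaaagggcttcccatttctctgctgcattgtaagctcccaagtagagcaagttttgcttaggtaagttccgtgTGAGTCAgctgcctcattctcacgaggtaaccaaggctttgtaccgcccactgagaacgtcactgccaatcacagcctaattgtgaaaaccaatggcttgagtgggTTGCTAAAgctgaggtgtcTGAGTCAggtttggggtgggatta
F13a1: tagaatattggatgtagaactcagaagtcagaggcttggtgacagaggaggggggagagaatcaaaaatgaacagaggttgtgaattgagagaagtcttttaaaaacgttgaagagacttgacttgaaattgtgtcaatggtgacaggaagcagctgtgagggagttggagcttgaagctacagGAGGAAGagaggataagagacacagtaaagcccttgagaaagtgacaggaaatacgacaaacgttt
Ly6c2: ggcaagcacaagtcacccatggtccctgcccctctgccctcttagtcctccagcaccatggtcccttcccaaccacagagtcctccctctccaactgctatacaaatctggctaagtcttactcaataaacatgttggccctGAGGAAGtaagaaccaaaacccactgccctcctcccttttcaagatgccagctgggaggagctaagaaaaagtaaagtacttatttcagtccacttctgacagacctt
In the *Cd68* window the AP-1 letters start 149 and 24 bases before the transcription start and the C/EBP letters 43 bases before it. PU.1 letters start 66 bases upstream of *F13a1* and 108 bases upstream of *Ly6c2*. Such matches describe the sequence and are not shown to be bound.

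The 3 genes for secreted or matrix-binding proteins held the widest range of differences. *Fn1* (chromosome 1, 71585520 to 71653200, GENCODE M21 on GRCm38) encodes fibronectin, a matrix glycoprotein that monocytes make when activated. It stood at 8.91, 4.08, and 6.22 CPM in control mice 1 to 3, at 9.08, 10.3, and 5.91 CPM in p53mut mice, at 4.80, 8.12, and 6.54 CPM in NrasG12D mice, and at 35.7, 30.0, 14.7, and 67.5 CPM in NPmut mice 1 to 4. All 4 NPmut mice lay above the 9 others, and they differed from each other by more than the 9 others did. The log2 fold change between NPmut and control mice was 2.52 (SE 0.45).

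*F13a1* (chromosome 13, 36867178 to 37050244) encodes the catalytic A chain of coagulation factor XIII, a transglutaminase that crosslinks fibrin and fibronectin and is made by monocytes and platelets. Its CPM were 328, 389, and 321 in control, 322, 574, and 306 in p53mut, 229, 348, and 397 in NrasG12D, and 1011, 1188, 1027, and 903 in NPmut mice. The NPmut mice lay above the 9 others, whose groups overlapped each other. NPmut exceeded control by 1.58 on the log2 scale (SE 0.23). All 7 tested genes of the megakaryocyte and platelet list were called lower in NPmut mice, with summed levels of 14.6 to 73.0 CPM against 138 to 215 CPM in control mice.

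*Lgals3* (chromosome 14, 47367751 to 47386160), the gene for galectin-3, a secreted lectin of macrophages, had few counts outside NPmut mice. Control mice had 1.44, 1.11, and 0.204 CPM, p53mut mice 0.738, 1.77, and 0.695, NrasG12D mice 1.39, 1.90, and 1.88, and NPmut mice 11.2, 28.8, 7.88, and 9.08. Behind these lay 4 to 29 counts in the 9 other mice and 107 to 748 counts in NPmut mice. Every NPmut mouse was above the 9 others, with mouse 2 far above the rest. The log2 fold change between NPmut and control mice, 3.98 (SE 0.61), was the largest of the 10 and also carried the largest error.

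**Figure D1:**
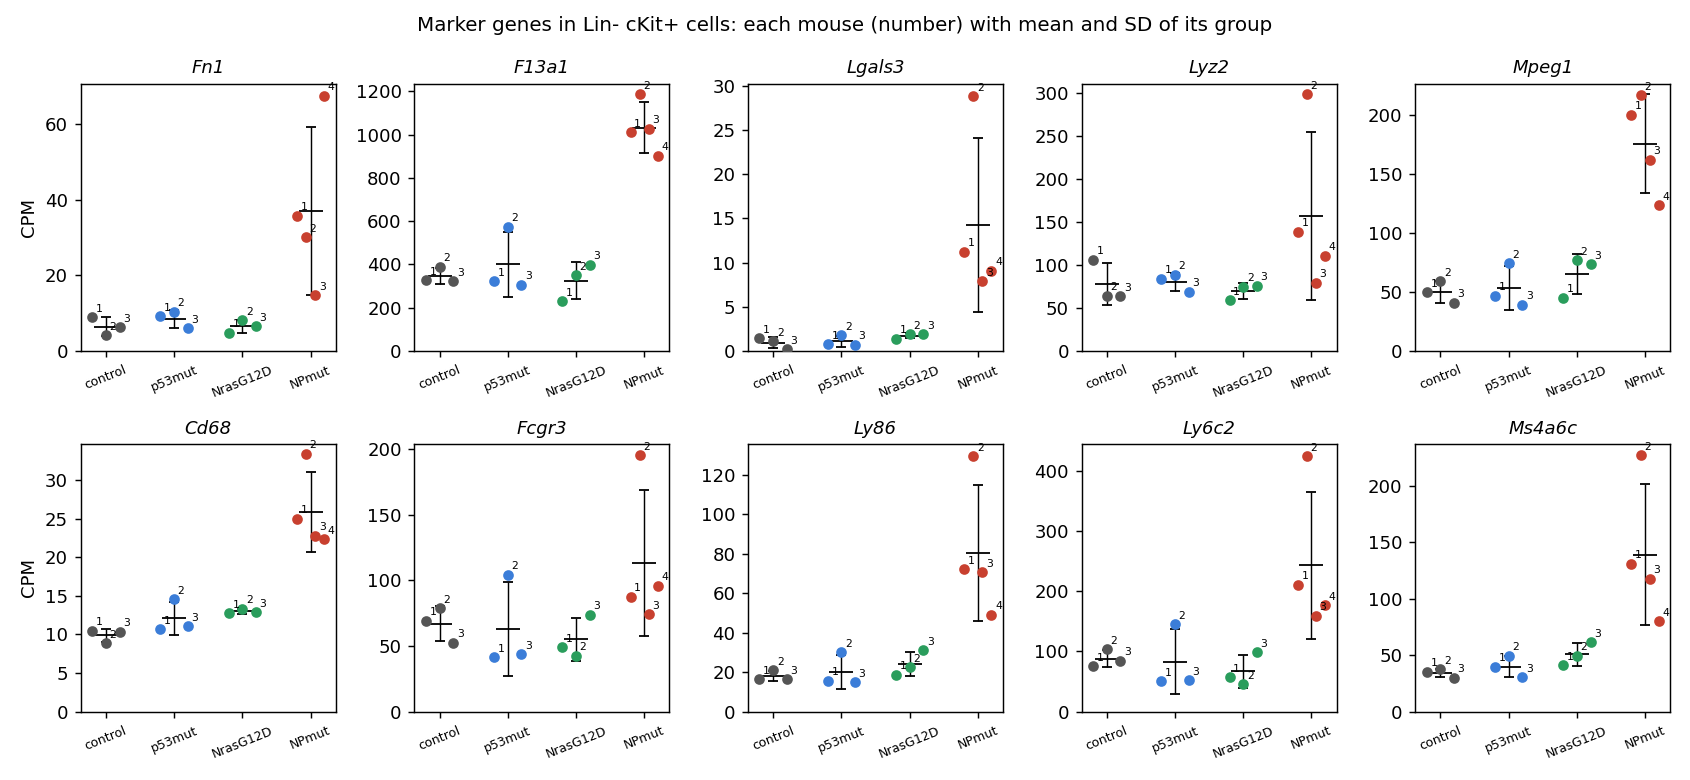
Level of each marker gene (CPM, linear axes from 0) in Lin- cKit+ cells of 3 control, 3 p53mut, 3 NrasG12D, and 4 NPmut mice; points are mice, numbered as in the labels, horizontal marks group means, and bars SD. The NPmut points lie above all others for every gene except *Lyz2* and *Fcgr3*, and p53mut mouse 2 is the highest of its group in each panel.

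Lysosomal and antimicrobial proteins are encoded by the next 3 genes. *Lyz2* (chromosome 10, 117277331 to 117282321) encodes lysozyme M, which cleaves bacterial cell walls and is also made by granulocytes and their progenitors. It stood at 106, 64.2, and 63.4 CPM in control, 83.8, 88.5, and 68.6 in p53mut, 58.9, 74.3, and 75.4 in NrasG12D, and 139, 298, 79.0, and 110.5 in NPmut mice. NPmut mouse 3 fell within the range of the control mice, so that the groups overlapped. The log2 fold change was 1.01 (SE 0.38) with all NPmut mice and 0.49 without mouse 2. Of the 50-base stretches of its transcripts, 15.4% also occur in *Lyz1*, the lysozyme of Paneth cells, which had 1.59 ± 0.914 CPM in control and 3.24 ± 2.42 CPM in NPmut mice.

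*Mpeg1* (chromosome 19, 12460779 to 12465283) encodes perforin-2, a pore-forming protein of phagosomes. Control mice had 49.9, 59.0, and 40.9 CPM, p53mut mice 46.7, 74.5, and 39.3, NrasG12D mice 45.3, 76.8, and 73.7, and NPmut mice 201, 217, 162, and 124. No NPmut mouse overlapped another group, and the log2 fold change against control was 1.82 (SE 0.26). The related cytotoxic gene *Prf1* had 0 to 11 counts per mouse and was too low to test.

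*Cd68* (chromosome 11, 69664213 to 69666153) encodes a heavily glycosylated lysosomal membrane protein that is widely used to stain macrophages. The values were 10.5, 8.90, and 10.3 CPM in control, 10.7, 14.6, and 11.1 in p53mut, 12.8, 13.4, and 12.9 in NrasG12D, and 25.0, 33.4, 22.8, and 22.4 in NPmut mice. Again the NPmut mice stood apart from the 9 others, and the spread within each group was small. NPmut exceeded control by 1.39 (SE 0.17), the smallest error of the 10 genes, and exceeded NrasG12D by 1.00 (SE 0.17). The 3 NrasG12D mice also lay above all 3 control mice, by 0.39 on the log2 scale (SE 0.18), and this did not pass the test (adjusted p = 0.528).

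Surface proteins and their partners made up the remaining 4 genes. *Ly6c2* (chromosome 15, 75108158 to 75111970) encodes a component of Ly6C, the surface marker of classical monocytes. It was measured at 75.5, 103, and 84.4 CPM in control, 50.8, 145, and 52.1 in p53mut, 56.7, 45.4, and 98.5 in NrasG12D, and 211, 425, 159, and 177 in NPmut mice. NPmut mice did not overlap any other group, although mouse 3 exceeded p53mut mouse 2 only slightly. The log2 fold change against control was 1.47 (SE 0.46). Its near copy *Ly6c1* shares most of the 14.5% of 50-base stretches that are not unique to *Ly6c2*, and stood at 3.94 ± 0.517 CPM in control and 8.16 ± 4.07 CPM in NPmut mice (log2 fold change 1.06, SE 0.62, adjusted p = 0.311).

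*Fcgr3* (chromosome 1, 171051174 to 171064935) encodes the activating receptor CD16 for immune complexes, which progenitors of granulocytes and monocytes carry as well. CPM were 69.3, 78.9, and 52.4 in control, 41.3, 104, and 43.7 in p53mut, 48.9, 42.6, and 73.7 in NrasG12D, and 87.7, 195, 74.1, and 96.0 in NPmut mice. NPmut mouse 3 lay within the control range, and 3 of the 4 NPmut mice lay below p53mut mouse 2. The log2 fold change against control was 0.76 (SE 0.39), the smallest of the 10, and 0.36 without NPmut mouse 2.

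The other *Fcgr* genes did not pass the test between NPmut and control mice. The inhibitory receptor *Fcgr2b*, which shares 9.58% of the 50-base stretches of *Fcgr3*, differed by 0.49 (SE 0.21, adjusted p = 0.165). *Fcgr1*, the high-affinity receptor, was at 0.433 ± 0.0261 CPM in control and 0.441 ± 0.323 CPM in NPmut mice (log2 fold change 0.11, SE 0.75, adjusted p = 0.945), and *Fcgr4*, a receptor of patrolling monocytes, differed by 1.18 (SE 0.63, adjusted p = 0.259). By contrast *Fcer1g*, the common signaling chain that the activating receptors need, rose from 20.8 ± 4.40 CPM in control to 72.8 ± 29.9 CPM in NPmut mice (log2 fold change 1.81, SE 0.29, adjusted p = 0.00181).

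*Ly86* (chromosome 13, 37345208 to 37419036) encodes MD-1, a secreted protein that binds the Toll-like receptor relative RP105. It had 16.5, 20.8, and 16.4 CPM in control, 15.6, 30.2, and 14.8 in p53mut, 18.8, 22.4, and 30.9 in NrasG12D, and 72.2, 129.5, 70.5, and 49.0 in NPmut mice. The NPmut mice were all above the 9 others, by 2.17 on the log2 scale against control (SE 0.34). *Cd180*, which encodes RP105 itself, stood at 17.3 ± 2.94 CPM in control and 26.4 ± 4.83 CPM in NPmut mice, and the difference of 0.61 on the log2 scale did not pass the test (SE 0.20, adjusted p = 0.0602). *Ly96*, the gene of the homologous TLR4 partner MD-2, stayed near 1 CPM with 1.07 ± 0.595 in control and 1.16 ± 0.349 in NPmut mice (log2 fold change 0.12, SE 0.53, adjusted p = 0.908).

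*Ms4a6c* (chromosome 19, 11469366 to 11482192) belongs to a cluster of genes for membrane proteins with 4 transmembrane stretches. Control mice had 35.2, 37.4, and 29.9 CPM, p53mut mice 39.6, 49.3, and 30.4, NrasG12D mice 40.9, 49.4, and 61.5, and NPmut mice 131, 227, 118, and 79.9. There was no overlap between NPmut and the other groups, and the log2 fold change against control was 2.03 (SE 0.30). The gene overlaps *BE692007* on the opposite strand, which had 2 to 11 counts where *Ms4a6c* had at least 525. With both strands compared, 51.4% of the 50-base stretches of *Ms4a6c* also occur in other genes, most of them in *BE692007*. The strand setting of the counting is not given in the sources used here, and its effect on the level of *Ms4a6c* was not tested.

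Among the *Ms4a* relatives of *Ms4a6c*, 3 were called higher in NPmut than in control mice. *Ms4a4c* rose from 1.39 ± 0.324 to 6.90 ± 3.17 CPM (log2 fold change 2.32, SE 0.38, adjusted p = 0.00181). *Ms4a4b*, at 0.871 ± 0.401 CPM in control mice, rose by 1.63 (SE 0.47, adjusted p = 0.0378), and *Ms4a6b*, at 9.94 ± 1.69 CPM, by 1.10 (SE 0.23, adjusted p = 0.00833). *Ms4a6d* differed by 1.88 at under 4 CPM in every mouse and did not pass the test (SE 0.61, adjusted p = 0.0608). *Ms4a2*, a mast cell gene of the family singled out after its values were seen, differed by -1.47 and did not pass it either (SE 0.45, adjusted p = 0.0544).

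Read together, the members gave a count of 7 of 10 called higher in NPmut than in control mice, beside 2.32% of all 17795 genes tested. Calls required at least a 2-fold change with an adjusted p under 0.05. The genes not called were *Lyz2*, *Fcgr3*, and *Ly6c2*, and no member was lower. Since the members were chosen with results of NPmut mice known, the count describes the choice. The 7 called genes kept their call in all 13 fits that each left out a mouse. *Lyz2* gained a call in 1 such fit, without NPmut mouse 3, and *Ly6c2* in 2, without NPmut mouse 3 or without p53mut mouse 2. In bulk RNA, more cells of the monocyte lineage in the sorted fraction and more of these transcripts per cell cannot be told apart.

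Against the single mutants the differences of the NPmut mice were of similar size. NPmut exceeded NrasG12D by 1.00 to 3.05 on the log2 scale with 7 members called (1.81% of all genes called higher), and exceeded p53mut by 0.85 to 3.75 with 7 called (2.15% of all genes). *Cd68* was called against p53mut and control but its difference from NrasG12D did not reach 2-fold, whereas *Ly6c2* was called only against NrasG12D. The call of *Ly6c2* was lost without NrasG12D mouse 1 or 2 or NPmut mouse 2. Against p53mut, that of *Fn1* was lost without p53mut mouse 3, and *Cd68* fell short of 2-fold without NPmut mouse 2. These comparisons share the NPmut mice. For 10 of 10 members every NPmut mouse was above every NrasG12D mouse (9.34% of all genes), and for 8 every NPmut mouse was above every control mouse (10.4% of all genes) and above every p53mut mouse (9.1% of all genes). The same 8 were above each of the 9 other mice, beside 4.23% of all genes.

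**Figure D2:**
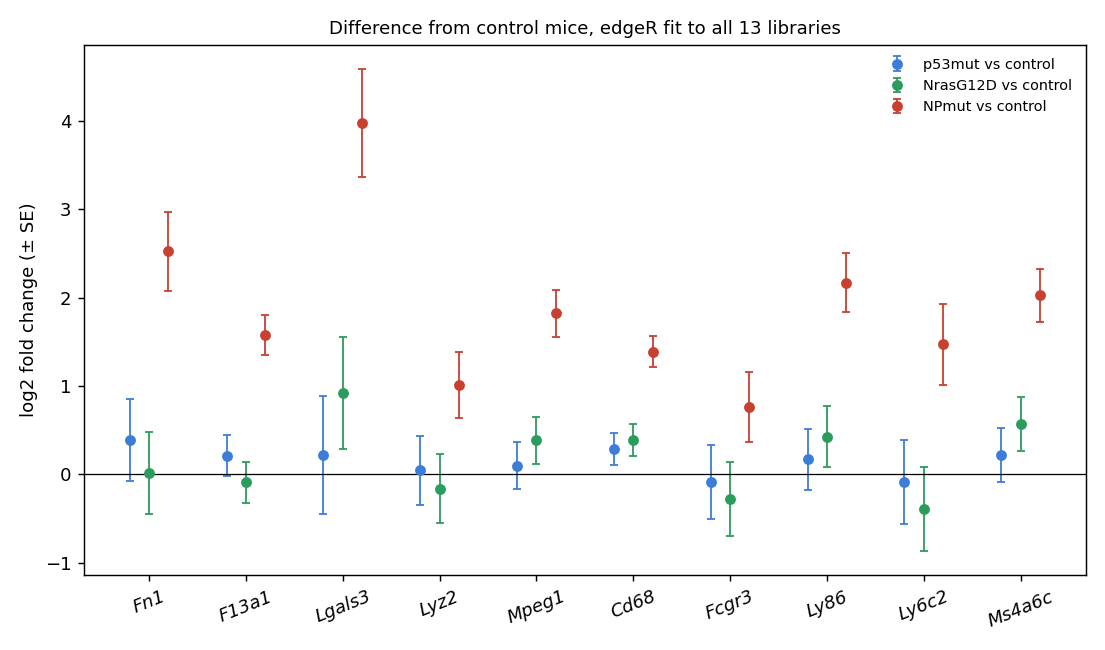
Log2 fold change against control mice (points) with SE (bars) of the 10 marker genes in p53mut, NrasG12D, and NPmut mice. NPmut values run from 0.76 (*Fcgr3*) to 3.98 (*Lgals3*), whereas the single mutants run from -0.39 to 0.92 and no value of theirs was called.

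Neither mutation alone came with a called change in these genes. In p53mut against control mice the 10 log2 fold changes ran from -0.09 to 0.39 (SE 0.18 to 0.67), each with an adjusted p of 0.9998 by edgeR, and 0% of all genes were called higher. At an unadjusted p under 0.05 the count was also 0 members, and DESeq2 called 0 members as well. In NrasG12D against control mice they ran from -0.39 (*Ly6c2*) to 0.92 (*Lgals3*), with SE of 0.18 to 0.64 and adjusted p-values of 0.528 to 0.997 by edgeR, and 0.00562% of all genes were called higher. Only *Cd68* had an unadjusted p under 0.05 there, and DESeq2 again called 0 members. A p-value that misses the threshold at SE of this size does not show that levels were equal.

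The value by which NPmut exceeded the sum of the single-mutant differences, the interaction, was positive for all 10 members, from 0.71 (*Cd68*) to 2.83 (*Lgals3*). Only *F13a1* was called, at 1.46 (SE 0.32), beside 0.405% of all genes called higher. The interaction again contains the NPmut mice, whose results were known when the genes were chosen. The call of *F13a1* was lost in 9 of the 13 fits that left out a mouse. It was kept without p53mut mouse 2, NrasG12D mouse 3, or NPmut mouse 3 or 4. DESeq2 called 6 members, beside 258 called higher among the 44944 genes with a count. By default DESeq2 gives no adjusted p to genes of low mean count, so this share is not comparable with that of the edgeR fits. The replicate block fit called 5, beside 135 of 17795 genes, and the unfiltered fit 3, beside 308 of 44944 genes.

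Mice of a group did not vary independently from gene to gene. NPmut mouse 2 had the highest value of its group for 9 of the 10 genes, all but *Fn1*, which was highest in mouse 4. Summed over the 10 genes, mouse 2 reached 2772 CPM against 1638 to 1924 CPM in the other NPmut mice. The same mouse had a summed level of 23236 CPM for the neutrophil and GMP list, against 13913 to 15001 CPM in the others. How far the 2 lists depend on each other, in this mouse or in others, was not tested.

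p53mut mouse 2 showed the same arrangement at a lower level. It was the highest of its group for all 10 genes, with a sum of 1093 CPM against 620 and 572 CPM, and its neutrophil and GMP list summed to 18370 CPM against 10262 and 9322 CPM. Without this mouse, 7 of the 10 p53mut differences from control were negative, with *Ly6c2* at -0.77 and *Fcgr3* at -0.65, and none was called. Among NrasG12D mice, mouse 1 had the lowest value for 8 genes, and among control mice, mouse 3 for 7. Control mouse 2 (767 and 14898 CPM) and NrasG12D mouse 3 (832 and 14961 CPM) were likewise highest of their groups in both sums. Ordered by either sum, the mice of each group stood in the same order.

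**Figure D3:**
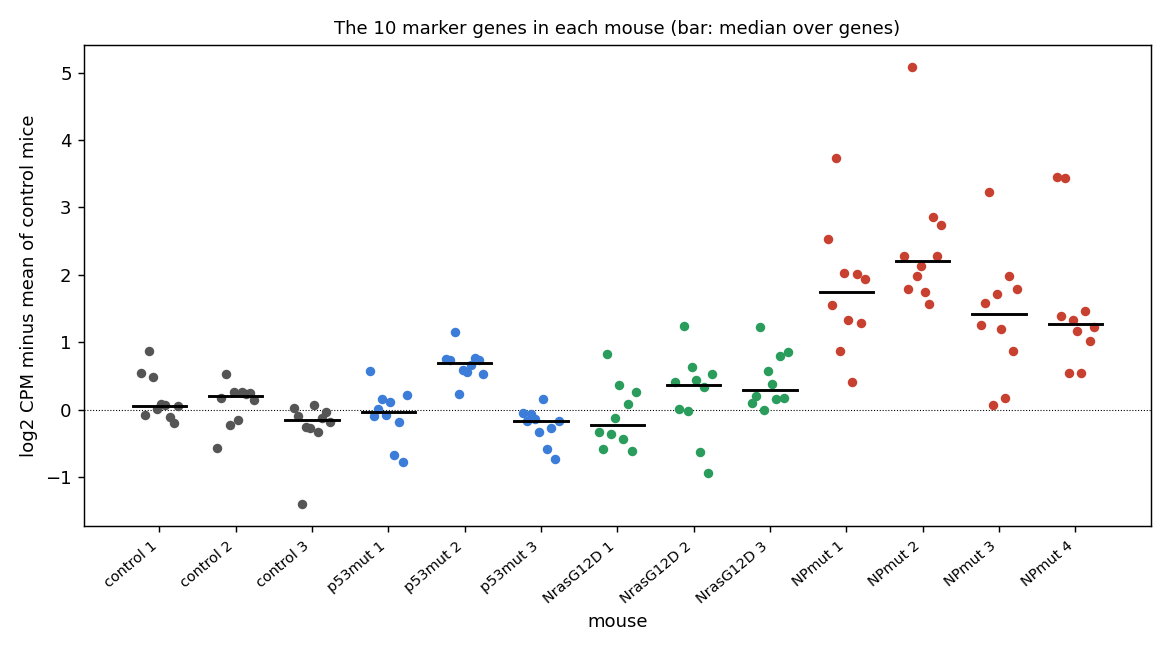
Difference of each mouse from the mean of the control mice, in log2 CPM (prior count 2), for the 10 marker genes (points), with the median over genes (bars). Medians of the NPmut mice run from 1.28 to 2.21, that of p53mut mouse 2 is 0.70, and those of the other 8 mice lie between -0.23 and 0.37.

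Compared per length, the order of the genes was similar in control and NPmut mice. In RPKM, which are counts scaled by exon length and by the total of the library, control mice had the highest levels for *Lyz2* (61.1 ± 18.7) and *F13a1* (53.1 ± 4.53), which did not differ beyond their spread. *Fcgr3* (39.8 ± 6.96) and *Ly6c2* (33.1 ± 4.87) came next and overlapped each other, followed without overlap by *Ms4a6c* (17.2 ± 1.49), *Mpeg1* (11.9 ± 1.85), *Cd68* (8.17 ± 0.887), and *Ly86* (5.09 ± 0.610). *Fn1* (0.569 ± 0.216) and *Lgals3* (0.506 ± 0.350) were lowest and overlapped. *Lgals3* and *Fn1* were thus the least abundant per length and had the largest log2 differences in NPmut mice.

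In NPmut mice *F13a1* led with 146 ± 13.9 RPKM, and *Lyz2* (111 ± 63.0), *Ly6c2* (83.3 ± 37.4), *Ms4a6c* (64.0 ± 25.8), and *Fcgr3* (61.2 ± 26.3) followed, each overlapping its neighbors. *Mpeg1* was at 38.7 ± 8.80 and *Ly86* at 20.9 ± 7.94 RPKM. The only gap between neighbors without overlap was the one between *Cd68* (19.6 ± 3.02) and *Lgals3* (7.16 ± 4.51). *Fn1* was lowest at 3.00 ± 1.77 RPKM and overlapped *Lgals3*, as it did in control mice. *Ms4a6c*, which was below *Fcgr3* in control mice, stood above it in NPmut mice, with overlapping ranges.

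A separate list of classical monocyte genes was written without the 10 members. Like the lists below, it was made with earlier results of these data known, so its calls are not independent support. Of its 22 genes tested, 9 were called higher in NPmut than in control mice, and 0 were called lower. Its median log2 fold change was 0.94, against 0.01 for all genes. Largest among them was the difference of *Klf4*, a transcription factor needed for monocyte differentiation, which had 5.73 ± 1.72 CPM in control and 41.4 ± 13.9 CPM in NPmut mice (log2 fold change 2.85, SE 0.59, adjusted p = 0.0103). *Irf8*, which directs progenitors to the monocyte and dendritic lineages, rose from 135 ± 5.44 to 485 ± 96.3 CPM (log2 fold change 1.85, SE 0.23, adjusted p = 0.00044). *Tyrobp*, the signaling adaptor DAP12, rose from 22.6 ± 2.92 to 84.6 ± 37.7 CPM (log2 fold change 1.91, SE 0.28, adjusted p = 0.00094). The other called genes were *Ms4a4c*, *Cybb*, *Fcer1g*, *Csf1r*, *Ccr2*, and *Ccl6*.

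Patrolling monocyte genes gave 4 called higher of 9 tested from a list of 13, with 0 lower and a median of 1.16. *Nr4a1*, the transcription factor on which these cells depend and also an immediate-early gene, had 198, 90.3, 6.27, and 125 CPM in NPmut mice 1 to 4 against 1.95 to 4.51 CPM in control mice (log2 fold change 4.94, SE 1.03, adjusted p = 0.0143), so that NPmut mouse 3 was close to the control range. The integrin gene *Itgax* rose by 2.09 (SE 0.53, adjusted p = 0.0212). *Cx3cr1*, the fractalkine receptor that marks these cells, rose from 10.2 ± 1.31 to 22.7 ± 7.02 CPM (log2 fold change 1.16, SE 0.29, adjusted p = 0.0181), and *Cebpb* rose by the same log2 fold change of 1.16 (SE 0.32, adjusted p = 0.0366). Of the 9 differences, 8 were positive. *Spn* (0.04, SE 0.10) and *Cd36* (-0.07, SE 0.60), singled out after their values were seen, differed least. *Ace*, *Treml4*, *Cd300e*, and *Adgre4* were too low to test, and *Cd300e* was at 0 in every NPmut mouse. Leaving out control mouse 3 took the count of called genes to 0, whereas omission of control mouse 1 or 2 or of NPmut mouse 1 or 2 gave 2.

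Of 16 tissue macrophage genes tested, 0 were called higher and 2 lower, with a median of -0.39, and the summed level of the list was 73.7 to 106 CPM in NPmut against 247 to 290 CPM in control mice. *Apoe*, the lipid carrier that makes up most of that sum in control mice, fell from 208 ± 13.5 to 45.5 ± 17.7 CPM (log2 fold change -2.19, SE 0.27, adjusted p = 0.000482). *Slc40a1*, the iron exporter ferroportin, fell from 31.4 ± 7.34 to 13.4 ± 7.39 CPM (log2 fold change -1.25, SE 0.35, adjusted p = 0.0383), and both genes are also transcribed in other BM cells. The macrophage marker *Adgre1* (F4/80), singled out after its values were seen, differed by 1.20 and was not called (SE 0.38, adjusted p = 0.0546). Leaving out either control mouse 2 or 3, p53mut mouse 1, NrasG12D mouse 2 or 3, or NPmut mouse 1 or 2 left 1 gene called lower. Both fits with a replicate block called 2 higher and 2 lower, and the fit without a filter on low counts 2 higher and 3 lower.

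**Figure D4:**
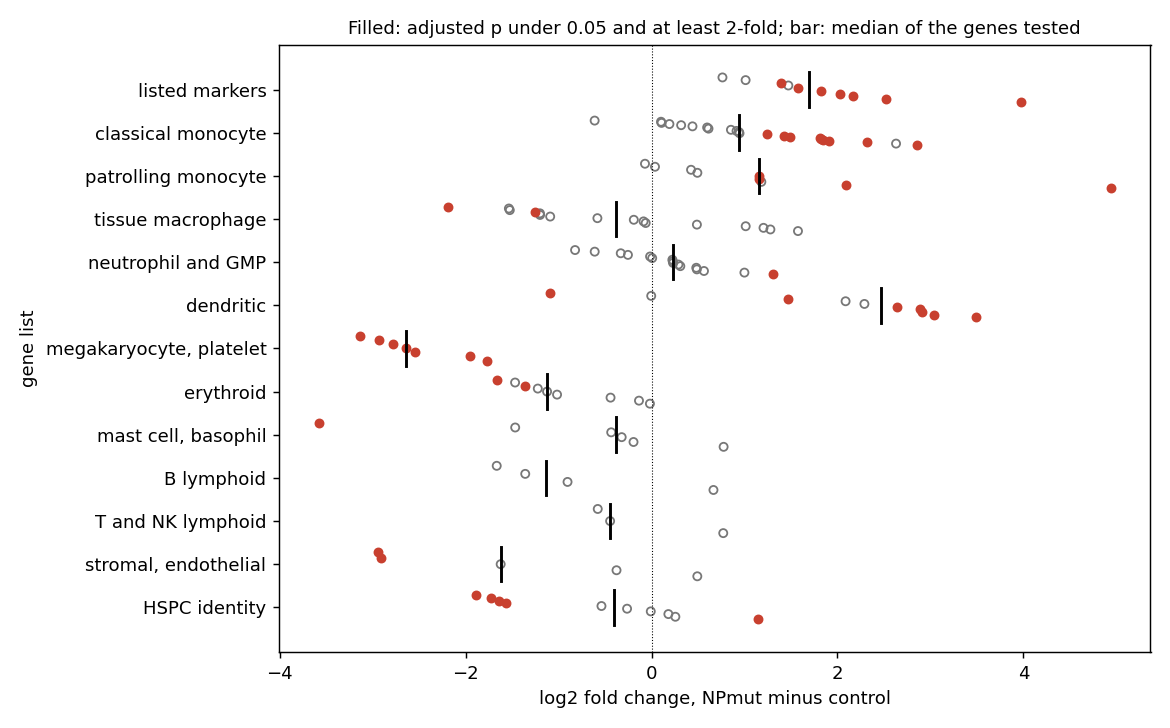
Log2 fold change of NPmut against control mice for each tested gene (points) of the listed markers and of lists for other cell types; filled points have an adjusted p under 0.05 and at least a 2-fold change, and bars are list medians. The listed markers were chosen with results of NPmut mice known. Classical and patrolling monocyte genes have medians of 0.94 and 1.16, tissue macrophage genes -0.39, dendritic cell genes 2.46, and megakaryocyte and platelet genes -2.64.

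Partners, ligands, and family relatives of the 10 proteins gave 5 called higher and 0 lower of 26 tested, with a median of 0.44. Besides *Fcer1g* and the *Ms4a* genes these included *Lgals1*, the gene for galectin-1, which rose from 62.3 ± 9.86 to 201 ± 120 CPM (log2 fold change 1.70, SE 0.39, adjusted p = 0.0161). *F13b*, the carrier chain of factor XIII made in the liver, had 0 to 2 counts per mouse. The count was 3 without control mouse 2 or NPmut mouse 2 and 2 without control mouse 3. None of these 4 lists had a gene called in either single mutant against control.

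The genes whose pattern over the 13 libraries lay closest to the mean pattern of the 10 members, by the root mean square difference of centered log2 CPM, were *Fcer1g* (0.0887), *Unc93b1* (0.157), *Tyrobp* (0.173), *Pld4* (0.207), and *Mgst1* (0.214). *Unc93b1* encodes a chaperone of endosomal Toll-like receptors and *Mgst1* a microsomal glutathione transferase. Among the members, *Ly86* and *Ms4a6c* were closest to each other (0.186), and *Mpeg1* was next closest to *Ms4a6c* (0.213). *Lgals3* lay farthest from any other member, 0.884 from *Ly86*, and *Fn1* was 0.654 from *F13a1*. *Lyz2* and *Fcgr3*, the genes with overlapping groups, were closest to each other (0.385).

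Lists for other cell types were measured beside these genes in NPmut and control mice. Neutrophil and GMP genes gave 1 higher and 0 lower of 16 tested, with sums of 13913 to 23236 CPM in NPmut and 11906 to 14898 CPM in control mice. Dendritic cell genes gave 6 higher and 1 lower of 10, with a median log2 fold change of 2.46, above the 1.70 of the 10 markers, and sums of 164 to 301 against 133 to 134 CPM. The 6 were *Siglech*, *Clec9a*, *Cd74*, and the MHC class II genes *H2-Aa*, *H2-Ab1*, and *H2-Eb1*. The 1 lower was the transcription factor gene *Zbtb46* (log2 fold change -1.09, SE 0.29). Megakaryocyte and platelet genes gave 0 higher and 7 lower of 7, and *Gp1bb* was at 0 in every NPmut mouse. Erythroid genes gave 2 lower of 9, mast cell and basophil genes 1 lower of 6, and stromal and endothelial genes 2 lower of 5, with 0 higher in each.

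Neither the B lymphoid list (4 tested, sums of 14.0 to 27.2 CPM in NPmut and 13.4 to 17.7 CPM in control mice) nor the T and NK lymphoid list (3 tested, 39.5 to 60.2 against 53.4 to 68.2 CPM) had a called gene by edgeR. Of 10 HSPC identity genes, 1 was higher and 4 were lower, with sums of 1940.1 to 2516 CPM in NPmut and 2503 to 2929 CPM in control mice. For comparison, 2.32% of all genes were called higher and 3.69% lower. The part of these other cell types in the levels of the 10 markers was not tested.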

How the data were processed

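RNA-Seq counts of Lin- cKit+ BM cells from 13 mice were used, and the labels give each library as a separate mouse. The authors deposited raw read counts per gene in 1 table, made from SMARTer stranded total RNA libraries, with 0 columns left without a sample. The submitters' processing notes name STAR 2.6.1d, R 3.6.1, DESeq2 1.26.0, and GRCm38.p6, and the counting program and strand setting are not given in the sources used here. GENCODE M21 holds 54809 of the identifiers and lacks 29, which carry 0.0032% of the counts.

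The tests used edgeR 4.0.16 in R 4.3.3, with 1 quasi-likelihood model of all 13 libraries with a mean per group, TMM factors, robust estimation, and filterByExpr, which kept 17795 of 44944 genes with a count. Benjamini-Hochberg adjustment covered every gene tested, and the procedure was tested on simulated data. The simulation gave every group the same spread, so it does not cover the larger spread among NPmut mice. The interaction is NPmut minus p53mut minus NrasG12D plus control on the log2 scale. CPM use TMM-scaled library sizes and RPKM library totals and exonic lengths. At the smallest total of 12576174 counts, *Lgals3* has few counts outside NPmut mice.

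The members and all gene lists were chosen with earlier results of these data known. Named were all members, up to 4 called genes per direction with the largest change from the classical monocyte, patrolling monocyte, tissue macrophage, and partner lists, and all called genes of a list with 5 or fewer. Close relatives, the 5 genes of the most similar pattern, and the called genes of the dendritic cell list were also named. Alternatives were DESeq2 1.42.0, other scaling factors and filters, only the compared groups, the replicate number as a block, and each mouse left out. Same-numbered control and p53mut mice deviated weakly together from their group means (r = 0.152 to 0.166 in all 3 pairs), and no label ties the number to a litter or batch. A negative r occurred in every other pair of groups. Deviations from a mean of 3 mice are not independent, so these r do not show that the mice were paired.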

Additional observations from a re-analysis of the deposited data

Results flagged for a closer look

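*Lgals3* in NPmut mice had a value far from the others of its group. NPmut mouse 2 reached 28.8 CPM against 7.88 to 11.2 CPM in the other 3. On this linear scale the gap was 0.841 of the range of the group and above Dixon's critical value for 4 samples. Chance gives such a gap in about 1 in 20 groups, and all members were screened. In log2 CPM above the control mean, NPmut mice 1 to 4 stood at 3.74, 5.09, 3.23, and 3.44, a scale on which the gap is relatively smaller and was not tested. The other 9 members had ratios under the critical value. Without that mouse the log2 fold change of *Lgals3* against control was 3.37, compared with 3.98 with it.

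The difference between NPmut and p53mut mice in *F13a1* exceeded that between NrasG12D and control mice, an interaction of 1.46 on the log2 scale. It was called among all genes tested, but the interaction contains NPmut mice, whose results were known when the gene was chosen, so the call supports nothing. It lost its call in 9 of the 13 fits that left out a mouse, with values of 1.24 to 1.51 in these fits. The cause was not tested.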

How the results depend on the processing

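The count of members called in NPmut against control mice was 7 or 8 under DESeq2, other scaling factors, other filters, the compared groups alone, and both fits with a replicate block, and 7 to 9 when a mouse was left out. *Ly6c2* was the member that joined under DESeq2, with only the compared groups, and in the replicate block fit of those groups. It also joined with at least 10 counts required in every library, a filter that removed *Lgals3* from the test. Against NrasG12D and p53mut the count was 7 or 8 in the same fits and 6 to 9 when a mouse was left out. In the single mutants 0 members were called in every alternative. The interaction count of 1 was 6 with DESeq2, 3 without a filter on low counts, 5 with the replicate block, and 0 to 4 when a mouse was left out. It was 4 without p53mut mouse 2 and 2 without NPmut mouse 3.

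Tissue macrophage genes called numbered 2 in the reported fit, 5 without a filter (2 higher), 4 in both replicate block fits (2 higher), 1 with only the compared groups, and 1 to 3 when a mouse was left out. Patrolling monocyte genes ranged from 0 to 4, partners and relatives from 2 to 6, and classical monocyte genes from 7 to 10 over the fits without a mouse.

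Reversed signs occurred only among uncalled differences of the single mutants. *Fn1* in NrasG12D against control was -0.034 with library totals and -0.011 with at least 10 counts in every library, and -0.22 to 0.35 when a mouse was left out. Over those fits *F13a1* ranged from -0.26 to 0.11 and *Lyz2* from -0.29 to 0.14 in NrasG12D mice. In p53mut mice the ranges were -0.14 to 0.38 for *F13a1*, -0.33 to 0.73 for *Lgals3*, -0.077 to 0.34 for *Lyz2*, -0.21 to 0.29 for *Mpeg1*, -0.65 to 0.15 for *Fcgr3*, -0.23 to 0.36 for *Ly86*, and -0.77 to 0.17 for *Ly6c2*. The cause was not tested. Replicate numbers met the condition for pairing, an r over 0.1 in all 3 pairs, only between control and p53mut mice. There the block changed no call of a member. In NPmut against NrasG12D mice, whose numbers did not pair, *Ly6c2* lost and *Cd68* gained a call in both replicate block fits. The same changes occurred in the fit without a filter on low counts, which has no block. Library totals moved the median of all genes in NPmut against control from 0.01 to -0.11, and the called genes from 413 higher and 656 lower to 310.0 higher and 788 lower. DESeq2 called 484 higher and 898 lower, and the unfiltered fit 542 higher and 1026 lower.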
